A study of Rattus norvegicus with 6 samples.

Results

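Calprotectin is a calcium- and zinc-binding protein made of 2 subunits, encoded by S100a8 and S100a9, and it fills much of the cytosol of neutrophils. Neutrophils also carry granule proteins, made mostly while the cells mature in the marrow, and surface receptors for growth factors and chemokines that bring them into tissue. Monocytes make calprotectin too, and epithelia can make it under stress. The 10 genes described here are S100a8 and S100a9, the granule genes Camp, Np4, Ngp, Mpo, Fcnb and Mmp8, and the receptor genes Csf3r and Cxcr2. They were chosen by name, with earlier results of these arrays known, to ask whether calprotectin was higher with or without other neutrophil genes. Probes were found by the accession that the scanner files give, which placed 13 probes of 9 genes among 61537 probes and 15645 named genes on the array. Mpo, the peroxidase of azurophil granules, had no probe matched by accession.

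Renal cortex was taken from 6 male rats of the Sprague-Dawley stock Crl:CD(SD), bought at 5 weeks of age, and each rat had 1 single-colour Agilent array. In the p-nitroanisole group 3 rats had 4 weeks of this small aromatic nitro compound, at 500 mg/kg/day, and in the vehicle group 3 rats had corn oil over the same 4 weeks. Neither the route of dosing nor the time of necropsy is given in the sources used here, and the tissue was whole cortex, so that blood and every cell type in it contribute RNA. All 13 fixed markers of cortical cells were measured, among them Umod of the thick limb, Aqp2 of the collecting duct and the podocyte gene Nphs1, and their median log2 difference between the groups was -0.03.

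The scanner software called 40877 to 42601 probes well above background on each array and 0 spots saturated. The 75th percentile of the processed intensity was 877 to 955 on the p-nitroanisole arrays and 942 to 1022 on the vehicle arrays, and each signal below is given as a percentage of that value on its own array. The vehicle arrays and p-nitroanisole replicates 1 and 2 were on slide 1, and p-nitroanisole replicate 3 was alone on slide 2, so differences were also taken within slide 1. On slide 1 the vehicle arrays were all in row 1 and both p-nitroanisole arrays in row 2, so within that slide the row and the treatment cannot be told apart. On slide 2, p-nitroanisole replicate 3 was in row 1. The number of arrays limits the precision of every value.

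The promoters of the S100a9 and Camp genes are shown because these are the members with a RefSeq promoter whose groups did not overlap. S100a8 is not among the promoters used here. Each runs from 250 bases before to 50 bases after the transcript start in the rat assembly GRCr8, and capitals mark matches to a CCAAT/enhancer-binding protein core, TTNNGNAA on either strand, or to a TATA box, TATAAA on either strand. The S100a9 promoter lies on the minus strand at chr2:178490573-178490872 and the Camp promoter on the minus strand at chr8:118721949-118722248.
S100a9: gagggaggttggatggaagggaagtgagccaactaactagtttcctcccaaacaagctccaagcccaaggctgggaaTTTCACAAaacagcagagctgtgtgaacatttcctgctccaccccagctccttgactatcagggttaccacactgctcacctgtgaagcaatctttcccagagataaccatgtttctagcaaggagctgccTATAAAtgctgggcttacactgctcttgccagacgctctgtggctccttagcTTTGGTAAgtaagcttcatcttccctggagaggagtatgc
Camp: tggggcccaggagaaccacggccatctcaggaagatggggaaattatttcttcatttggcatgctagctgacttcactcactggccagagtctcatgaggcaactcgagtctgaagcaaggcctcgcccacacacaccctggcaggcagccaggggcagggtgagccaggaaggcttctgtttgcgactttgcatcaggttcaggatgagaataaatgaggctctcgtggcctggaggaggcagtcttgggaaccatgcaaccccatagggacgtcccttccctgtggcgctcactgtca

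In the S100a9 promoter the core matched at bases -173 (TTTCACAA) and 11 (TTTGGTAA) from the start site, and the TATA box at base -42. The Camp promoter held neither motif. Of the 9 members with a RefSeq promoter, 7 held the core, which 41.3% of all 33469 promoters hold, and 2 held the TATA box (S100a9 and Mmp8), which 14.2% hold. The motifs were chosen after the expression values were known, and a match describes the letters in this window only.

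**Figure D1:**
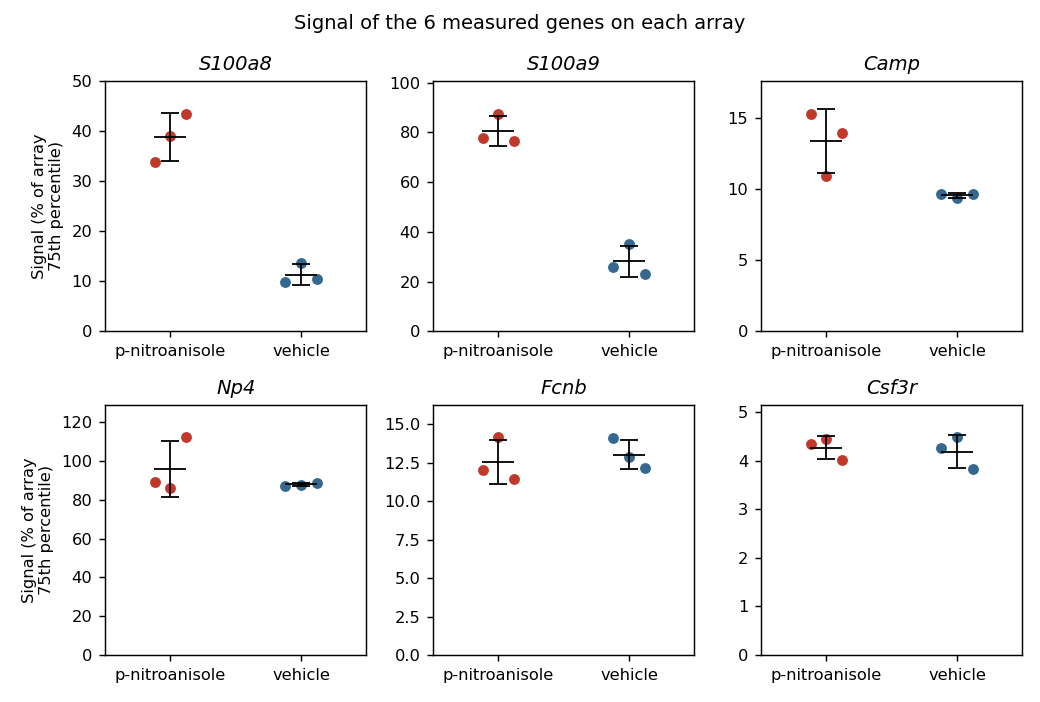
Signal of the 6 members with a measured probe on each array, as a percentage of the array's 75th percentile of processed intensity. Points are single rats, with 3 per group, and bars show the mean and SD. S100a8 averaged 38.8% with p-nitroanisole and 11.3% with vehicle, while Np4, Fcnb and Csf3r overlapped between the groups.

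Both calprotectin genes were higher in every p-nitroanisole rat than in any vehicle rat. S100a8 had signals of 33.9%, 38.9% and 43.5% in p-nitroanisole cortex, against 9.87%, 13.7% and 10.5% in vehicle cortex. Its mean was 38.8% ± 4.82 with p-nitroanisole and 11.3% ± 2.03 with vehicle (SD, n = 3 each), a 3.44-fold difference (log2 difference 1.78, SE 0.16). The lowest p-nitroanisole rat was well over the highest vehicle rat, replicate 2, so the groups did not overlap. S100a9, the subunit that pairs with S100a8, had signals of 78.0%, 87.6% and 76.6% in p-nitroanisole cortex, against 26.0%, 35.2% and 23.2% in vehicle cortex. It was 2.91-fold higher (log2 difference 1.54, SE 0.17), again with no overlap, and vehicle replicate 2 was again the highest control. Among the 12207 named genes tested, 34 had a log2 difference at least as large as that of S100a9.

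The S100a8 and S100a9 differences were of like size. The log2 difference of S100a8 exceeded that of S100a9 by 0.24, where the difference between the genes had an SD of 0.21 among p-nitroanisole rats and 0.14 among vehicle rats. Within slide 1 the log2 differences were 1.69 for S100a8 and 1.58 for S100a9. In p-nitroanisole replicate 3, which shares row 1 but not the slide with the vehicle arrays, S100a8 was 1.95 and S100a9 1.47 above the vehicle mean on the log2 scale. Because these genes were chosen with this comparison known, the differences of the 6 measured members are given as descriptions with the standard error of the fit, and nothing is concluded from a test of them. In whole cortex, more cells that hold calprotectin and more calprotectin RNA per cell cannot be told apart.

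Of the 6 granule genes, 3 were measured: Camp was higher in all 3 treated rats, and Np4 and Fcnb overlapped between the groups. Camp encodes cathelicidin, an antimicrobial peptide precursor of neutrophil granules. Its bright probe gave 15.3%, 10.9% and 14% in p-nitroanisole cortex, against 9.70%, 9.38% and 9.67% in vehicle cortex. The vehicle rats lay within a narrow band and all 3 treated rats lay above it, replicate 2 by the least. The difference was 1.39-fold (log2 difference 0.47, SE 0.13), and 510 named genes had a log2 difference at least as large.

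Np4, a rat neutrophil defensin, had signals of 89.1%, 86.0% and 112% in p-nitroanisole cortex, against 87.4%, 87.7% and 88.8% in vehicle cortex. Treated replicate 3 was high, treated replicate 2 was below every vehicle rat, and the groups overlapped (log2 difference 0.11, SE 0.11, and -0.01 within slide 1). Fcnb, or ficolin B, is a lectin of myeloid cells that can start complement activation. It had signals of 12.0%, 14.2% and 11.4% in p-nitroanisole cortex, against 14.1%, 12.9% and 12.2% in vehicle cortex. These values interleaved (log2 difference -0.06, SE 0.11), and the difference was 0.03 with the normexp background correction and 0.00 within slide 1.

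Of the receptors, only Csf3r was measured. Csf3r, the receptor for granulocyte colony-stimulating factor, had signals of 4.35%, 4.46% and 4.01% in p-nitroanisole cortex, against 4.27%, 4.48% and 3.83% in vehicle cortex. The groups covered nearly the same range (log2 difference 0.03, SE 0.09), and the sign was negative with quantile scaling (-0.05) and with median scaling (-0.03). It was also negative without vehicle replicate 3 (-0.035) and without p-nitroanisole replicate 2 (-0.0015).

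Of the 6 members tested, 3 had groups that did not overlap, all higher with p-nitroanisole, where 11.9% of all 32197 rows tested were higher without overlap and 10.3% lower without overlap. By limma's moderated test 1 member, S100a8, was called at the threshold of 0.05 after adjustment over all rows, where 0.0745% of rows were called. S100a8 lost this call in 12 of 18 alternatives, among them the omission of any 1 of the 6 rats. The members were chosen with these values known, so nothing is read from either count. The mean of S100a8 and S100a9 was higher in p-nitroanisole cortex by 1.66 on the log2 scale, and the mean of Camp, Np4, Fcnb and Csf3r by 0.14. Relative to those 4 genes, calprotectin was 2.87-fold higher (log2 difference 1.52, with SDs of 0.13 among p-nitroanisole and 0.26 among vehicle rats, n = 3 each). For Camp, Np4 and Csf3r only the brighter probe entered, as their second probes were not well above background on any array.

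By rat, the calprotectin mean stood above the vehicle mean by 1.54, 1.73 and 1.71 on the log2 scale in p-nitroanisole replicates 1, 2 and 3, against -0.14, 0.31 and -0.18 in the vehicle rats. The mean of the other 4 genes differed from its vehicle mean by 0.16, 0.09 and 0.16 in the p-nitroanisole rats, against 0.04, 0.01 and -0.05 in the vehicle rats. The treated rats were alike in both measures, and vehicle replicate 2 stood apart from the other vehicle rats in calprotectin and not in the other genes.

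**Figure D2:**
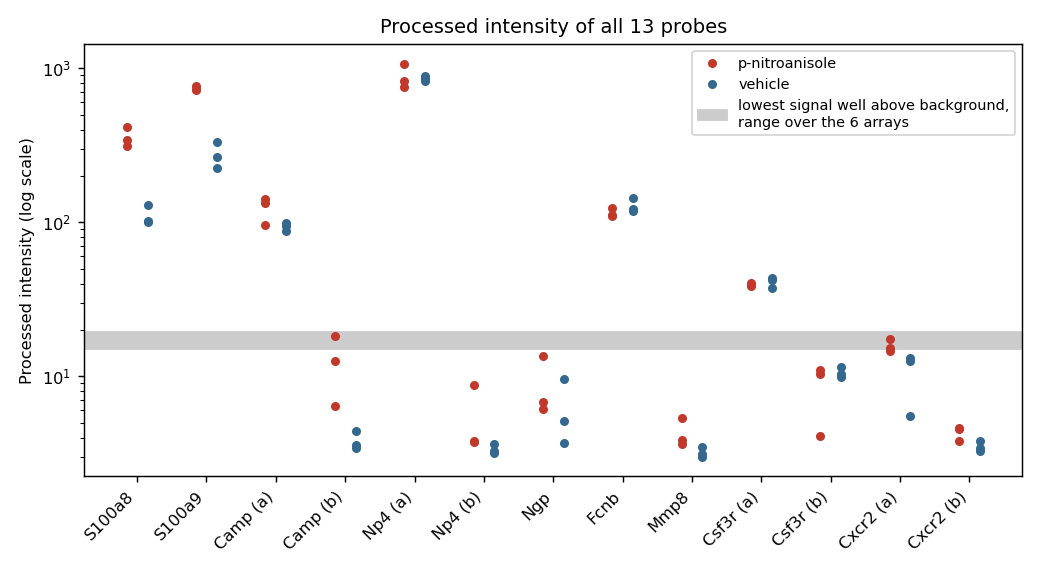
Processed intensity, on a log axis, of all 13 probes on the 3 p-nitroanisole (left of each pair) and 3 vehicle arrays. The letters a and b mark the brighter and dimmer probe of genes with 2 probes, and the grey band spans the lowest signal called well above background on each array, 15 to 19.5. The 6 probes that lie above the band were well above background on every array and the other 7 on none.

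The remaining members gave no measurable level. Ngp, a granule protein related to the cathelicidins, Mmp8, the neutrophil collagenase, and Cxcr2, the receptor for neutrophil chemokines such as Cxcl1, were not well above background on any of the 6 arrays. Ngp had processed intensities of 6.79, 6.13 and 13.6 in p-nitroanisole cortex, against 5.16, 9.58 and 3.70 in vehicle cortex. The brighter Cxcr2 probe gave 17.4, 14.6 and 15.3 in p-nitroanisole cortex, against 12.6, 13.1 and 5.53 in vehicle cortex. Mmp8 gave 3.64, 3.88 and 5.39 with p-nitroanisole, against 3.48, 3.00 and 3.15 with vehicle. These Cxcr2 and Mmp8 values were higher in every treated rat, while Ngp and the dimmer Cxcr2 probe overlapped between the groups. The lowest signal that the scanner called well above background was 17.2 to 19.5 on the p-nitroanisole arrays and 15 to 17.3 on the vehicle arrays. The second probes of Camp, Np4 and Csf3r were also below it on all arrays, so 3 genes had 1 probe measured everywhere and 1 measured nowhere, and which of the 2 follows the transcript was not tested. The second Camp probe gave intensities of 6.42, 18.4 and 12.6 in p-nitroanisole cortex, against 4.42, 3.44 and 3.59 in vehicle cortex, which is in the same direction as its bright probe but not above background. The median of the negative-control spots was 3.99 to 4.28 on the p-nitroanisole arrays and 3.41 to 3.94 on the vehicle arrays. The brighter Cxcr2 probe lay above these medians on every array, but no array called it or the other dim probes well above background. Such signals are not read as differences.

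**Figure D3:**
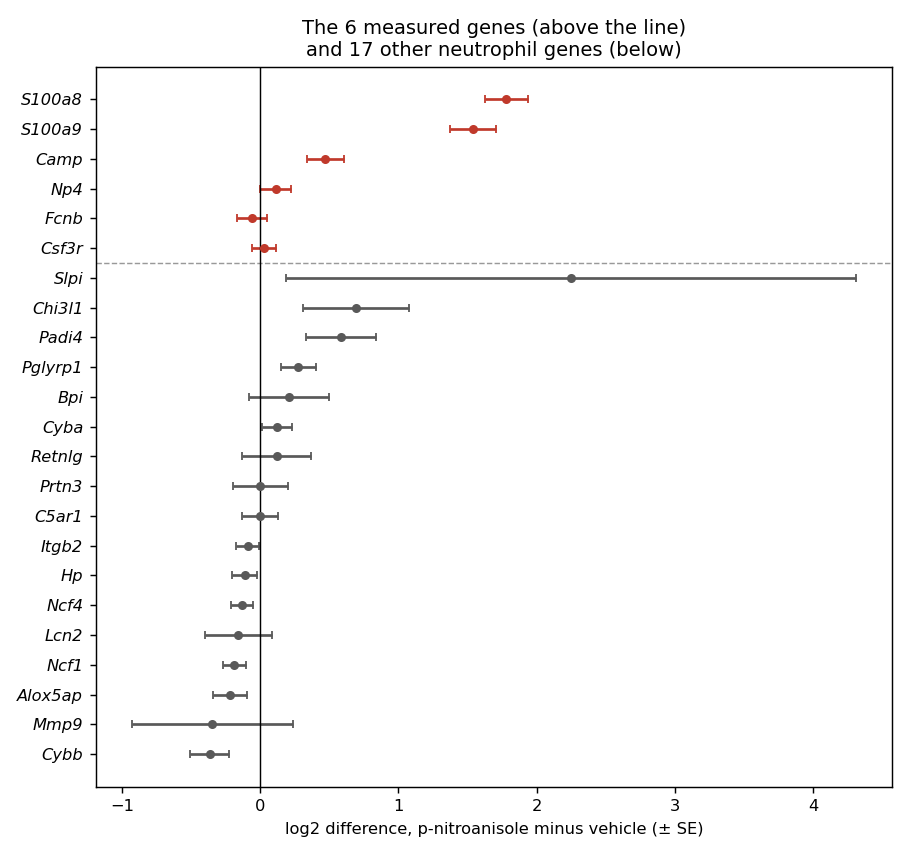
Log2 difference, p-nitroanisole minus vehicle, with its standard error, for the 6 measured members above the dashed line and the 17 tested genes of a wider neutrophil list below it, 3 rats per group. S100a8 at 1.78 and S100a9 at 1.54 had small errors, while Slpi at 2.25 had a standard error of 2.06.

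A wider list of 42 neutrophil genes, none of them members, was set beside calprotectin. It had 36 genes on the array and 17 tested, of which 8 were higher and 9 lower with p-nitroanisole. Over all rows, 52.4% were higher. Limma called 0 of the 17 (1 at an unadjusted p under 0.05, where 13.4% of all rows were), and their median log2 difference was 0.00, against 0.01 over all rows. On no array were 16 of the 36 well above background, among them Elane and Ctsg, which encode serine proteases of azurophil granules, Ltf, the lactoferrin of specific granules, and the chemokine receptor gene Cxcr1. Of the others, Prtn3, another serine protease of azurophil granules, differed by 0.00 (SE 0.20, limma adjusted p = 0.997), and Cybb, a subunit of the phagocyte oxidase, by -0.37 (SE 0.14, limma adjusted p = 0.347). Lcn2, a siderophore-binding protein of granules and injured tubules, differed by -0.16 (SE 0.24, limma adjusted p = 0.797). The summed level of the 17 genes was 22616% to 27522% with p-nitroanisole and 21276% to 24865% with vehicle, most of it from Cyba, an oxidase subunit that other cells also make.

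The largest differences on that list were uneven between rats. Slpi, a protease inhibitor of secretions and neutrophils, had signals of 232%, 292% and 6.18% in p-nitroanisole cortex, against 3.78%, 5.98% and 173% in vehicle cortex. It was high in treated replicates 1 and 2 and vehicle replicate 3 and low in the other 3 rats (log2 difference 2.25, SE 2.06, limma adjusted p = 0.661), a pattern that S100a8 and S100a9 did not have. Chi3l1, a chitinase-like protein of neutrophils and macrophages, had 10.8%, 4.07% and 4.50% with p-nitroanisole and 3.53%, 4.10% and 3.24% with vehicle (log2 difference 0.70, SE 0.38, limma adjusted p = 0.482). Padi4, which citrullinates histones in neutrophils, had 7.03%, 4.15% and 4.02% with p-nitroanisole and 2.67%, 3.77% and 3.44% with vehicle. Its groups did not overlap, but the difference of 0.59 (SE 0.25) did not pass the test (limma adjusted p = 0.397). Il1r2, a decoy receptor for interleukin 1, was well above background on 2 of 3 p-nitroanisole arrays and on no vehicle array. It did not meet the rule for testing, and no difference is read from it.

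Signals that recruit neutrophils were set beside calprotectin as well. Of 24 such chemokines, cytokines and adhesion molecules, 13 were tested and 10 were higher, where 52.4% of all rows were. Limma called 0 of these genes, where 0.0745% of all rows were called (2 at an unadjusted p under 0.05, where 13.4% of all rows were). Their median log2 difference was 0.16, and 0.29 without vehicle replicate 1 and 0.24 without p-nitroanisole replicate 2. Cxcl1, a ligand of Cxcr2, had signals of 17.6%, 9.37% and 16.8% in p-nitroanisole cortex, against 9.30%, 4.10% and 7.47% in vehicle cortex. The groups came close but did not overlap (log2 difference 1.09, SE 0.38, limma adjusted p = 0.318). Ccl2, which draws monocytes, had 110%, 90.5% and 91.5% in p-nitroanisole cortex, against 69.2%, 34.4% and 50.4% in vehicle cortex (log2 difference 0.97, SE 0.26, limma adjusted p = 0.227). In both genes vehicle replicate 2 was the lowest rat, whereas it was the highest vehicle rat for S100a8 and S100a9.

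Other signals on this list overlapped or ran lower. The cytokine genes Tnf, Csf3 and Il1b differed by 0.43 (SE 0.30), 0.40 (SE 0.26) and 0.35 (SE 0.30), with limma adjusted p between 0.544 and 0.644. Csf3 encodes the ligand of Csf3r, and its second probe was not above background on any array. The complement gene C3 was lower, at 106%, 150% and 62.3% with p-nitroanisole and 156%, 168% and 167% with vehicle (log2 difference -0.71, SE 0.31, limma adjusted p = 0.397). The interleukin genes Il1a and Il6 and the selectin genes Sele and Selp, whose products slow neutrophils on vessel walls, were not well above background on any array.

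Calprotectin acts outside cells through TLR4 and the receptor for advanced glycation end products, encoded by Tlr4 and Ager. Of 13 tested genes of these receptors and their signalling, 4 were higher and 9 lower, where 52.4% of all rows were higher. Limma called 0 (0 at an unadjusted p under 0.05, where 13.4% of all rows were), and the median log2 difference was -0.04. Nfkbia, the inhibitor of NF-kappa-B that is itself an NF-kappa-B target, differed by -0.59 (SE 0.27, limma adjusted p = 0.417), the inflammasome adaptor gene Pycard by -0.29 (SE 0.12, limma adjusted p = 0.376) and Ager by 0.25 (SE 0.24, limma adjusted p = 0.669). The list median was 0.02 with the normexp background correction.

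Of 10 tested transcription factors known to act on calprotectin or myeloid genes, 4 were higher and 6 lower, where 52.4% of all rows were higher. Limma called 0 (1 at an unadjusted p under 0.05, where 13.4% of all rows were), and the median was -0.04. That median was 0.02 with normexp and 0.04 within slide 1. Irf7, the interferon regulatory factor of antiviral responses, was the lowest at -0.87 (SE 0.26, limma adjusted p = 0.269), Cebpd differed by -0.44 (SE 0.36, limma adjusted p = 0.621) and Stat3 by 0.19 (SE 0.15, limma adjusted p = 0.598). Cebpe, a CCAAT/enhancer-binding protein of late granulocyte maturation, was not well above background on any array.

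The other S100 genes had smaller differences than S100a8 and S100a9. Of 10 tested, 6 were higher and 4 lower, where 52.4% of all rows were higher. Limma called 0 (1 at an unadjusted p under 0.05, where 13.4% of all rows were). The median log2 difference was 0.03, with 4 of 10 higher and a median of -0.03 under median scaling. S100b differed by -0.65 (SE 0.27, limma adjusted p = 0.376), S100a5 by 0.38 (SE 0.21, limma adjusted p = 0.491) and S100g, a calcium-binding protein of the distal tubule, by 0.31 (SE 0.20, limma adjusted p = 0.543). S100a11 at -0.20 (SE 0.08, limma adjusted p = 0.346), S100a1 at 0.20 (SE 0.19) and S100a10 at -0.10 (SE 0.10) had smaller differences. S100a8 and S100a9 lie side by side on rat chromosome 2 in the RefSeq gene order. Of the 10 protein-coding genes on either side of the pair, 14 had a probe and 9 were tested, with log2 differences from -0.06 for S100a6 to 0.38 for S100a5 and 0 called by limma (0 at an unadjusted p under 0.05).

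**Figure D4:**
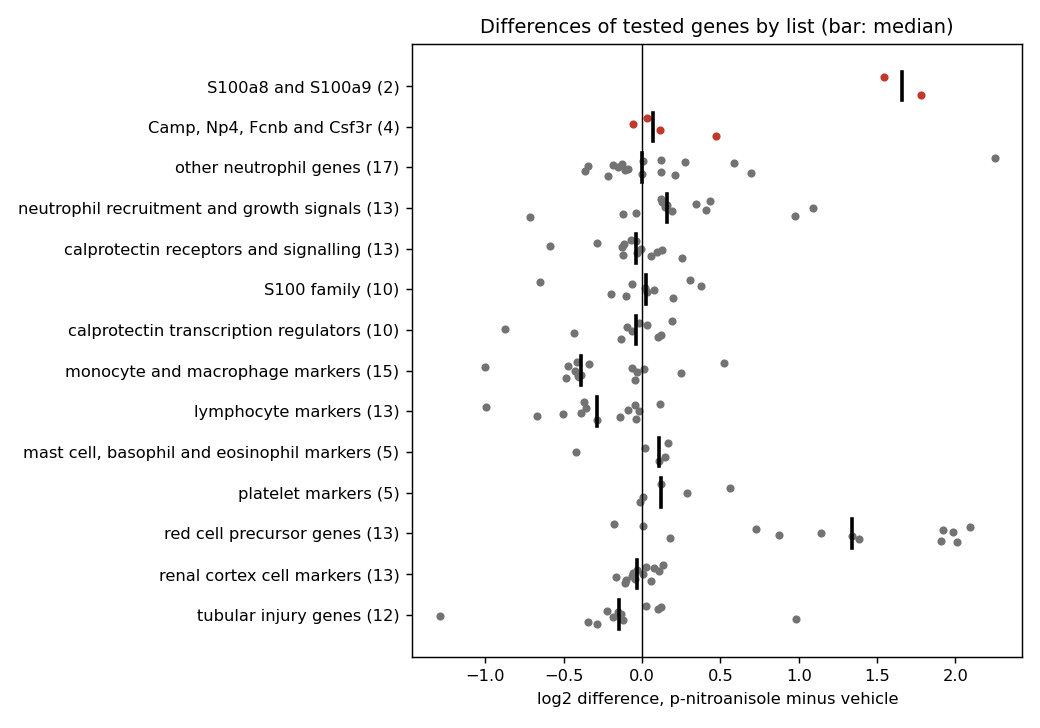
Log2 difference, p-nitroanisole minus vehicle, of each tested gene in the fixed lists, with the number tested in brackets and a bar at the list median. The medians were 1.66 for S100a8 and S100a9 and 1.34 for red cell precursor genes, and between -0.39 and 0.16 for the other lists apart from the 4 remaining members at 0.07.

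Among the markers of other blood cells, genes were called in the red cell list and in no other. Of 13 tested red cell precursor genes, 12 were higher, where 52.4% of all rows were. Limma called 3, all higher, where 0.0745% of all rows were called. The list had a median log2 difference of 1.34 and a summed level of 113224% to 131687% with p-nitroanisole and 48999% to 59365% with vehicle. Alas2, which starts heme synthesis in the red cell lineage, had signals of 489%, 440% and 560% in p-nitroanisole cortex, against 114%, 134% and 150% in vehicle cortex (log2 difference 1.91, SE 0.14, limma adjusted p = 0.0403). The globin genes Hba-a3 and Hbb-b1, whose probes may also detect related globins, differed by 1.34 (SE 0.12, limma adjusted p = 0.0453) and 1.14 (SE 0.10, limma adjusted p = 0.0492). All 3 calls were lost when any 1 array was left out, with limma adjusted p between 0.0682 and 0.159. They were also lost with no filter, within slide 1, with the slide as a block and with the replicate block. Hba-a3 and Hbb-b1 lost theirs with quantile scaling, and Hbb-b1 also with median scaling and with the series matrix values. Their part in the calprotectin difference was not tested.

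Over all 32197 rows tested by limma, 16887 were higher, 15310 were lower and 13.4% had an unadjusted p under 0.05. Of 15 tested monocyte and macrophage markers 12 were lower, with 0 called by limma (5 at an unadjusted p under 0.05) and a median of -0.39. The median was -0.24 within slide 1, that is, without p-nitroanisole replicate 3, and -0.25 without vehicle replicate 3. Their summed level was 7760% to 8975% with p-nitroanisole and 9830% to 11721% with vehicle, and Cd163, Marco and Vsig4 were not well above background on any array. Fcgr3a, an Fc receptor of monocytes, macrophages and natural killer cells, had signals of 79.6%, 117% and 55.8% in p-nitroanisole cortex, against 94.2%, 188% and 235% in vehicle cortex (limma adjusted p = 0.382). Aif1, a macrophage actin-binding protein, differed by -0.49 (SE 0.23, limma adjusted p = 0.432) and Mrc1, the mannose receptor, by 0.52 (SE 0.18, limma adjusted p = 0.321). Of 13 lymphocyte markers 12 were lower, with 0 called (2 at an unadjusted p under 0.05) and a median of -0.29. The median was -0.18 within slide 1, where 3 markers were higher, -0.19 without p-nitroanisole replicate 1 and -0.12 with normexp, and 4 markers were higher without vehicle replicate 3. Gzmb, a granzyme of cytotoxic cells, was the lowest, at 4.88%, 3.87% and 3.95% with p-nitroanisole and 11.7%, 6.92% and 7.40% with vehicle (limma adjusted p = 0.178), followed by the T cell receptor complex genes Cd3e at -0.67 (SE 0.44) and Cd3g at -0.51 (SE 0.26). Of 5 platelet markers 4 were higher, with 0 called (2 at an unadjusted p under 0.05) and a median of 0.12 that was -0.06 within slide 1 and 0.25 without p-nitroanisole replicate 1. Pf4, a platelet chemokine, differed by 0.56 (SE 0.18, limma adjusted p = 0.283), Gp9 by 0.28 (SE 0.09, limma adjusted p = 0.275) and Treml1 by 0.12 (SE 0.20). The part of these cells in the calprotectin difference was not tested.

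The 6 genes whose pattern over the 6 arrays was most like the calprotectin mean were Dsn1 (Pearson r = 0.994), Fam83d (0.991), Alox15 (0.983), Hbb-bs (0.981), Pir (0.979) and Hmox1 (0.978), out of 1305 named genes with a range of at least 1 on the log2 scale. The arrays fall into 2 groups, so these values mostly rank how cleanly a gene separates them, and no p is given. Dsn1 and Fam83d take part in chromosome segregation, Alox15 encodes a lipoxygenase, Hbb-bs a beta globin, Pir the iron-binding protein pirin and Hmox1 the inducible heme oxygenase. Their log2 differences were 0.86, 1.02, 2.71, 1.59, 1.18 and 3.51, and in each, as in calprotectin, vehicle replicate 2 was the highest vehicle rat. The genes were picked for likeness to the calprotectin mean, so this shared order is not a separate result. Among the members, the corresponding r was 0.80 for Camp, 0.43 for Np4, 0.28 for Csf3r and -0.24 for Fcnb.

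**Figure D5:**
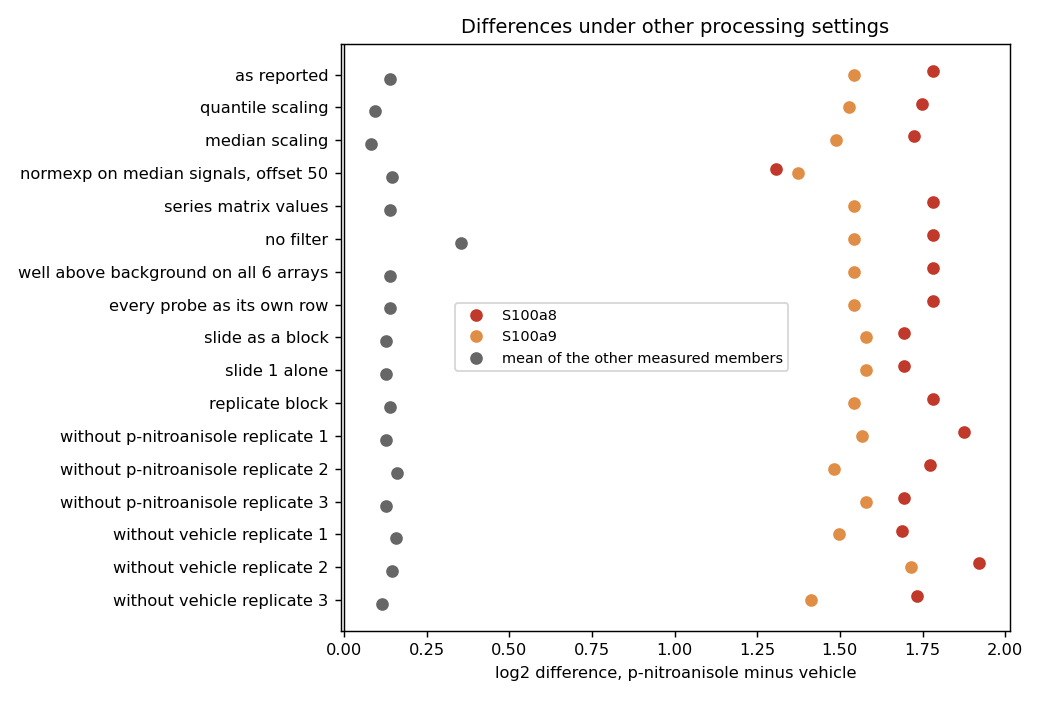
Log2 difference, p-nitroanisole minus vehicle, of S100a8, S100a9 and the mean of the other measured members under each processing setting, with the reported setting at the top. Over 16 alternatives S100a8 ranged from 1.31 to 1.92 and S100a9 from 1.37 to 1.72, while the mean of the others ranged from 0.08 to 0.35.

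The gap between calprotectin and the other members held its direction in all 16 alternatives that gave it a value. These alternatives are not separate checks. The gap stayed at 1.52 with median scaling, with the replicate block and with only probes well above background on all 6 arrays. The slide as a block, slide 1 alone and the omission of p-nitroanisole replicate 3 gave the same 1.51. The members were also chosen with this comparison known. S100a8 had its lowest value, 1.31, with the normexp background correction. The mean of the other members was highest, at 0.35, with no filter on dim probes, where it also takes in Ngp, Mmp8 and Cxcr2, which were not above background. Leaving out each rat in turn gave log2 differences of 1.69 to 1.92 for S100a8 and 1.41 to 1.72 for S100a9, both highest without vehicle replicate 2.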

How the data were processed

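Spot intensities were made by the authors with Agilent Feature Extraction, whose version is 10.7.1.1 per the file headers and 10.7 per the submitters' processing notes. Per the file headers, the processed intensity is spatially detrended and background-subtracted, with no scaling across arrays. The deposited series matrix is a linear signal equal to this intensity divided by a constant per array, within 0.00998% for signals above 0.5 (column medians 0.109, 0.108 and 0.111 for p-nitroanisole and 0.105 in each vehicle array); its centring is thus none, and a single-colour table has no direction.

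Control and outlier spots were left out. Processed intensity was floored at 1 and turned to log2, the 75th percentile of the same array was subtracted, and limma 3.58.1 (R 4.3.3) fitted the group difference (no trend, not robust, two-sided, Benjamini-Hochberg over 32197 rows, threshold 0.05). A probe was tested where every array of either group called it well above background, and the brightest such probe stood for a gene. Accessions named 28206 probes (45.8%) through RefSeq's table of GRCr8. The fit was tested on simulated data. Alternatives covered scaling, background correction, source of values, dim-probe filters, probe choice, variance model, slide, replicate block, threshold and each rat left out. The members, lists and tests were chosen with earlier results of these data known. Genes named from a list are its called genes, up to 4, or else the 3 with the largest differences (6 for S100 genes and recruitment signals), and the pattern genes are the 6 with the highest r; Prtn3, Cybb, Cyba, Lcn2, Il1r2, S100a6, Havcr1 and the genes named as dim were chosen after their values were seen. The design text calls the rats of a group biological replicates. Rats that share a replicate number did not deviate together over the tested rows (correlations -0.01, 0.04 and -0.01), so they were not treated as pairs. A pairing that touches few genes would not show in these correlations.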

Additional observations from a re-analysis of the deposited data

How the results depend on the processing

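S100a8, S100a9 and their excess over the other measured members kept their direction in all 16 alternatives that gave them a value. Several of these alternatives share an estimate, so they are not separate checks. With normexp on median spot signals, chosen after seeing the data because the planned form on mean signals was not run, S100a8 differed by 1.31 and the excess over the other members was 1.19. The excess was 1.31 with no filter. Leaving out 1 rat gave 1.69 to 1.92 for S100a8, 1.41 to 1.72 for S100a9 and 1.44 to 1.67 for the excess. The number of rows that limma called, 24 as reported, was 85 with normexp, 2 with no filter, 316 with a trended robust variance, 9 with the slide as a block, 15 within slide 1, 0 at a threshold of 0.01 and 0 to 15 without 1 rat (3288 to 4393 at an unadjusted p under 0.05). With the replicate number as a block it was 1, without S100a8. In this balanced design that block leaves every group difference as it was (1.78 for S100a8), so it tests only the calls. In all 18 alternatives limma called 0 genes of the wider neutrophil, recruitment, receptor, S100 and transcription factor lists. With so few rows called in most alternatives, that count says little. With no filter, which admits dim probes, the wider neutrophil median was 0.17, with 22 of the 36 genes on the array higher. The recruitment median was then 0.32, with 16 of the 21 genes on the array higher, and the median over all rows was 0.06. Leaving out 1 rat gave -0.07 to 0.07 for the wider neutrophil median. Of 48 list and pattern genes followed, 5 changed sign. Leaving out 1 rat gave -0.17 to 0.0038 for S100a10 (positive without vehicle replicate 3), -1.29 to 0.35 for Siglec5 (positive without p-nitroanisole replicate 1), -0.0341 to 0.31 for Prg2 and -0.0979 to 0.30 for Treml1 (both negative without p-nitroanisole replicate 3, the value also found within slide 1 and with the slide as a block). Siglec5 was 0.0491 with normexp and Umod -0.0225 with quantile scaling. The causes were not tested. Signal over background limited the report to 6 of the 9 members with a probe.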

Other observations

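Genes of tubular injury were also set beside calprotectin. Of 12 tested, 4 were higher and 8 lower with p-nitroanisole, where 52.4% of all rows were higher. Limma called 0, where 0.0745% of all rows were called (0 at an unadjusted p under 0.05, where 13.4% of all rows were). The median log2 difference was -0.15. It was -0.04 without p-nitroanisole replicate 3 and -0.06 without vehicle replicate 3. Havcr1, the kidney injury molecule, differed by -0.18 (SE 0.20, limma adjusted p = 0.711). Krt19, a keratin of ducts and injured tubules, had signals of 36.7%, 67.3% and 6.35% in p-nitroanisole cortex, against 50.7%, 58.3% and 77.8% in vehicle cortex (log2 difference -1.29, SE 0.85, limma adjusted p = 0.549). The fibrinogen genes differed by 0.98 for Fgg (SE 0.43, limma adjusted p = 0.404) and -0.35 for Fga (SE 0.25, limma adjusted p = 0.576).

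Markers of other granulocytes were mostly dim. Of 14 mast cell, basophil and eosinophil markers on the array, 5 were tested, 4 of them higher, where 52.4% of all rows were. Limma called 0 (0 at an unadjusted p under 0.05, where 13.4% of all rows were). The median of these markers was 0.11 (0.03 to 0.16 when 1 rat was left out). Tpsb2, a mast cell tryptase, differed by 0.16 (SE 0.09, limma adjusted p = 0.504), Prg2, an eosinophil granule protein, by 0.15 (SE 0.20) and Siglec5 by -0.42 (SE 0.79). The eosinophil peroxidase gene Epx and the mast cell receptor gene Fcer1a were not well above background on any array.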
